A study of Mus musculus with 24 samples.

Results

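The cell cycle and DNA replication genes are 48 genes of the mitotic cell cycle, listed by symbol. The list was chosen with earlier results of these data known. All 48 were found among the 36109 genes listed for the lung and the 36595 listed for the retina, and all 48 passed the filter on low counts in both tissues. They divide into 24 S-phase members, which commit a cell to division or copy its DNA, and 24 mitotic members, from cyclin A2 onward. RNA sequencing covered 12 lungs and 12 retinas of newborn C57/B6 mice, with 3 mice in each of 4 groups per tissue: wild type (WT) littermates or gasdermin D knockouts (KO), each in room air (RA) or high oxygen (O2). The KO is germ line and homozygous, made by CRISPR, and removes 38 bp from the fifth exon of Gsdmd, the gene that encodes the pore-forming protein of pyroptosis. Lungs were taken on postnatal day 15 after 85% oxygen, or room air at 21%, between days 1 and 14. Retinas were taken on day 18, from pups that had spent days 7 to 12 in 75% oxygen and then recovered in room air, or from pups never moved out of room air. The comparisons ask how these genes differ with hyperoxia in each genotype, and how the genotypes differ in each atmosphere.

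A dividing cell passes from a growth phase into S phase, in which DNA is copied, and then into mitosis. D-type and E-type cyclins with their kinases free the E2F factors, which turn on genes for origin licensing, the MCM helicase, the replication clamp and the supply of nucleotides. Later, FOXM1 and a complex of B-MYB and MuvB proteins turn on cyclin A2, cyclin B, CDK1 and the spindle genes. In newborn lung, epithelium, endothelium and fibroblasts divide while alveoli form. In a retina of this age nearly all neurons have left the cell cycle, and vessels, glia and microglia hold most cells that can still divide.

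Promoters were read to show what the members of each class share in sequence. RefSeq promoter windows (build GRCm38.p6, 250 bases before to 50 after the start) matched 37 of the 48 members with 39 windows. An E2F-type word (TTTGGCGC, TTTCCCGC, TTTCGCGC or TTTGCCGC on either strand) was in 8 of 20 S-phase windows (40%), 1 of 19 mitotic windows (5.26%) and 2.27% of all 32851 windows. The CHR word TTTGAA was in 3 of 20 S-phase windows (15%), 14 of 19 mitotic windows (73.7%) and 17.9% of all windows. CCAAT occurred at least once in 75% of S-phase, 89.5% of mitotic and 37.4% of all windows. The stretch of 120 bases that ends just before the start is printed for 2 S-phase and 4 mitotic members described below. These are examples that hold the word of their class there, and they are written 5′ to 3′ on the strand of the gene. Capitals mark the words named above on either strand, and in Mcm6 a pair of E2F-type words overlap.
Mcm6, chr1:128359706-128359825, minus strand: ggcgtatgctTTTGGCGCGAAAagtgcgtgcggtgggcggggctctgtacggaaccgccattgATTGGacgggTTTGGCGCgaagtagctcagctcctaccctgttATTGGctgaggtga
Orc1, chr4:108579334-108579453, plus strand: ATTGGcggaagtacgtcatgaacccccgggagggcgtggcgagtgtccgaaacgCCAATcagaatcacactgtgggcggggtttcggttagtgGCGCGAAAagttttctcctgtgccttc
Cdk1, chr10:69352913-69353032, minus strand: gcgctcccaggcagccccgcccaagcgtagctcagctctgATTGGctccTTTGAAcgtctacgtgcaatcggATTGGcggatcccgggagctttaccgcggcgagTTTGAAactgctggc
Cdc20, chr4:118437344-118437463, minus strand: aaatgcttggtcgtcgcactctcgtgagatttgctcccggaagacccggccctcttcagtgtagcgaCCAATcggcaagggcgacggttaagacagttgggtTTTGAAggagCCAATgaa
Mki67, chr7:135716380-135716499, minus strand: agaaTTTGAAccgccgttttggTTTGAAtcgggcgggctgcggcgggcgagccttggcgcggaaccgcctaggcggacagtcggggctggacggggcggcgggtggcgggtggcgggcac
Top2a, chr11:99024190-99024309, minus strand: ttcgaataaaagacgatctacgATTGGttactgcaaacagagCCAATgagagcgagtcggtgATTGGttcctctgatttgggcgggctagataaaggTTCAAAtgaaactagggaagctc
The 2 replication genes hold an E2F-type word in these stretches, and the 4 mitotic genes hold a CHR word. CCAAT stands near it in Cdk1, Cdc20 and Top2a, while in Mki67 the CCAAT words lie further from the start, outside the printed stretch. Other members differ: the E2F-type words of Mcm5 and Cdc6 lie further from the start, and those of Mcm3 and Cdt1 after it. The CHR words of Hmmr and Plk1 also lie after the start. The printed matches are therefore no result beyond the shares given above. A matching word is a string of letters and was not tested as a binding site.

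Libraries held 28763661 to 29604254 counts in the lung and 24863257 to 29093035 in the retina, and levels are given as CPM, counts scaled to library size. Gsdmd stood at 32.1 to 42.3 CPM in the 6 WT lungs and at 11.7 to 24.8 CPM in the 6 KO lungs. In the retina the genotypes overlapped, at 0.419 to 5.69 CPM in WT and 0.635 to 2.95 CPM in KO, and counts over the whole gene do not read the deletion itself. The sexes were unevenly placed, as read from Y-linked transcripts above 20 CPM: among WT lungs no mouse in room air and 1 in hyperoxia was male, and among KO lungs 2 and 3 were. In the retina all room air mice were male, and 1 of 3 hyperoxic mice in each genotype. Rod markers summed to 49150 to 73130 CPM in retinas, and alveolar epithelial markers to 14420 to 22980 CPM in lungs. Lens markers (7 genes) reached 13180 and 45870 CPM in WT-RA retinas 2 and 3 and 18760 CPM in KO-RA retina 3, and 3.83 to 220 CPM elsewhere. Erythroid markers (9 genes) reached 26280 and 29920 CPM in KO-O2 lungs 1 and 2, against 2920 to 5969 CPM in the other hyperoxic lungs and 12670 to 26850 CPM in room air lungs. Exons of 9 members share 10% or more of their bases with a gene on the other strand, Gins2 with Gse1 over 67.3% of its bases, Kif20a with Cdc23 over 29.3% and Ccnd1 with LTO1 over 23.4%. The counting is not stated to use strand, so reads there cannot be divided between the genes. Ccnb1, Ccnb2, Pcna and Tyms have named pseudogenes, which could share their reads.

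In WT lungs most of the cell cycle genes stood higher after hyperoxia than in room air. A member was said to pass at an adjusted p under 0.1 (edgeR quasi-likelihood test, Benjamini-Hochberg over all 16819 genes tested). In WT-O2 against WT-RA lungs 29 members rose and 3 fell, where 24.5% of all tested genes rose and 24.7% fell. The median log2 fold change of the members was 0.45, and that of all tested genes -0.01. The groups did not overlap for 22 members that were higher and 2 that were lower, against 24.6% and 25.2% of all genes. Most changes were small: by the study's rule, which adds a fold of at least 2, only Ccnd1 was called, against 11.6% of all genes. In bulk tissue, more cells of a type and more RNA per cell cannot be told apart.

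Among the G1/S genes, Ccnd1, which encodes the cyclin D1 that starts the path to S phase, stood apart. Its level was 126, 120 and 143 CPM in the WT-RA lungs and 614, 545 and 563 CPM in the WT-O2 lungs. No WT-O2 lung came near the room air range, and the log2 fold change was 2.14 ± 0.10 (SE, n = 3 per group), adjusted p = 1.6e-09. Ccne1, cyclin E1, rose from 2.34, 2.32 and 3.51 CPM to 5.01, 4.82 and 5.74 CPM (0.93 ± 0.20, adjusted p = 0.0018). Its partner kinase Cdk2 fell, from 34.4, 32.0 and 35.3 CPM to 27.2, 31.0 and 29.3 CPM (-0.22 ± 0.08, adjusted p = 0.045). Ccne2 did not pass, with a log2 fold change of -0.08 ± 0.21.

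Of the 14 origin licensing and firing genes 9 rose, 2 fell and 3 did not pass. Mcm2, a subunit of the replicative helicase, was at 20.4, 23.2 and 30.7 CPM in WT-RA and 43.7, 43.7 and 41.3 CPM in WT-O2 lungs (0.79 ± 0.13, adjusted p = 3e-04). The 3 hyperoxic lungs were nearly level for Mcm2 and all lay above WT-RA mouse 3, the highest in room air. The loaders of the helicase rose as well, Cdc6 by 0.95 ± 0.20 and Cdt1 by 0.75 ± 0.19 on the log2 scale. Mcm10 rose by 0.87 ± 0.21 and Mcm5 by 0.69 ± 0.18. Mcm6, Mcm3 and Mcm4 rose less, by 0.41 ± 0.10, 0.39 ± 0.16 and 0.31 ± 0.11. Mcm7 did not pass, at 0.22 ± 0.12. Orc1, a subunit of the origin recognition complex, rose by 0.73 ± 0.28, from 0.733, 1.11 and 1.44 CPM to 1.77, 2.03 and 1.65 CPM. Another subunit gene, Orc6, fell from 15.2, 17.4 and 17.2 CPM to 13.2, 13.5 and 14.3 CPM (-0.28 ± 0.10, adjusted p = 0.029). Gins2, the gene with the long overlap, also fell, by 0.40 on the log2 scale (SE 0.14), while Gins1 and Cdc45, further parts of the active helicase, did not pass.

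Nucleotide supply rose and the clamp did not pass. Rrm1, the large subunit of ribonucleotide reductase, went from 29.7, 32.4 and 35.4 CPM to 54.3, 49.7 and 45.7 CPM (0.62 ± 0.11, adjusted p = 0.00047). Rrm2, its small subunit, rose by 0.71 ± 0.20, and Tyms, thymidylate synthase, by 0.51 ± 0.11. Pcna, the sliding clamp, was at 60.4, 59.7 and 59.8 CPM in room air and 67.5, 61.8 and 61.3 CPM in hyperoxia, a difference of 0.08 ± 0.07 (adjusted p = 0.38). The E2F genes rose together, E2f1 by 0.61 ± 0.12 and E2f8 by 0.71 ± 0.19.

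Of the 24 mitotic members 13 rose, none fell and 11 did not pass in WT lungs. Foxm1, the mitotic transcription factor, rose from 15.5, 15.5 and 25.5 CPM to 30.5, 30.0 and 27.8 CPM (0.64 ± 0.16, adjusted p = 0.0066). Aurkb, the kinase of the chromosomal passenger complex, rose from 4.85, 5.08 and 7.19 CPM to 10.9, 9.53 and 10.6 CPM (0.86 ± 0.17, adjusted p = 0.0011). For both genes the room air and hyperoxic lungs did not overlap. Cdk1, the mitotic kinase, rose from 7.29, 7.53 and 12.0 CPM to 15.2, 16.5 and 14.4 CPM (0.78 ± 0.18, adjusted p = 0.0031), and its activator Ccnb1 rose by 0.85 ± 0.20. Kif23, a midbody motor, rose by 0.47 ± 0.14. Mki67, the gene of the Ki-67 proliferation marker, was at 48.9, 60.4 and 70.3 CPM in WT-RA and 105, 63.7 and 75 CPM in WT-O2 lungs. These groups overlapped, and Mki67 passed narrowly (0.44 ± 0.19, adjusted p = 0.092). Top2a, topoisomerase II alpha, which untangles chromosomes, rose by 0.57 ± 0.18. None of the 4 spindle checkpoint, anaphase and passenger genes (Bub1, Bub1b, Cdc20 and Birc5) passed, and their log2 fold changes ran from -0.61 to 0.41.

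**Figure D1:**
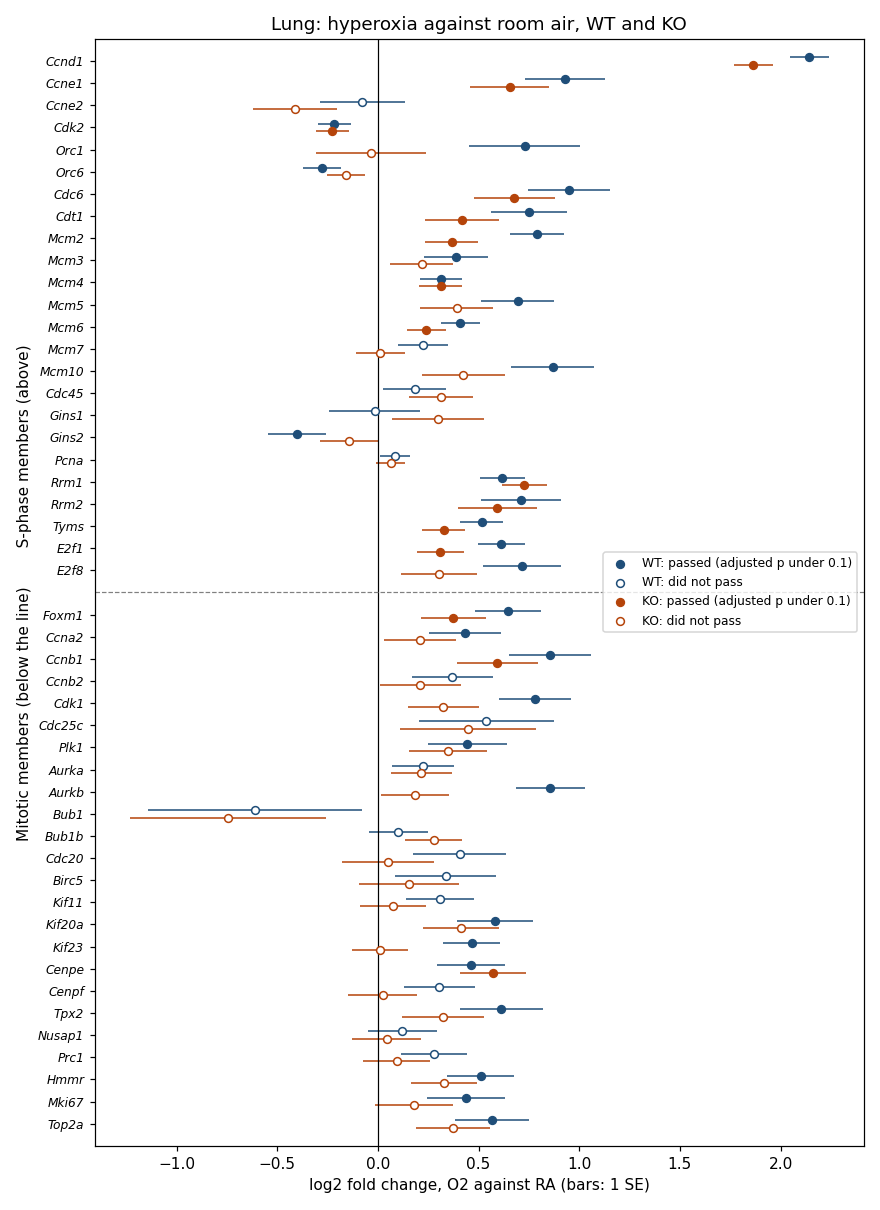
The log2 fold change of hyperoxia against room air is shown for each of the 48 members in WT (blue) and KO (orange) lungs, with bars of 1 SE and filled points for members that passed. Most points lie to the right of 0 in both genotypes, and Ccnd1 lies furthest right, at 2.14 in WT and 1.87 in KO.

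WT-RA lung 3 had the highest level of its group for 45 of the 48 members. Its 24 mitotic members summed to 421 CPM, against 261 and 286 CPM in WT-RA lungs 1 and 2 and 405 to 507 CPM in the WT-O2 lungs. Without this mouse 40 members passed in WT, 18 S-phase and 22 mitotic, with 24.7% of all genes higher and 23.9% lower in that fit. The mitotic count was 7 without WT-RA mouse 1 and 7 without WT-O2 mouse 1. In those fits 21.1% and 21.7% of all genes were higher, and 21.2% and 21.5% lower. Among females alone (3 WT-RA and 2 WT-O2 lungs) 43 of 48 members were higher in hyperoxia. Fibroblast markers (6 genes, none at 0) summed to 4798, 5649 and 6881 CPM in WT-RA lungs 1 to 3 and 6661 to 7576 CPM in WT-O2. Of these 6 genes 3 rose and 2 fell, with log2 fold changes from -2.20 to 1.5, and the sum rests mostly on collagens. The summed level went up for 8 macrophage markers, none at 0, from 279 to 330 CPM to 481 to 511 CPM. Other lists went down: B cell markers from 189 to 198 CPM to 46.5 to 55.0 CPM, thymocyte markers from 23 to 31.4 CPM to 9.49 to 14.8 CPM, and erythroid markers from 15750 to 18150 CPM to 2920 to 4152 CPM. Endothelial markers went from 4131 to 4501 CPM to 3124 to 3523 CPM, and alveolar epithelial markers from 20280 to 22160 CPM to 14430 to 17520 CPM. Their part in these results was not tested.

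The wider pathway, listed by hand from general knowledge with earlier results of these data known, moved in mixed directions in WT lungs. Of 60 other mitotic genes 28 rose and 2 fell, and of 50 other replisome and S-phase genes 20 rose and 6 fell, beside the 24.5% and 24.7% of all genes. Among 8 other G1 cyclins, kinases and Myc genes 5 rose, with Ccnd2, a second D-type cyclin, at 1.11 ± 0.09 and Myc at 1.60 ± 0.20, and 1 fell, Cdk6, at -0.41 ± 0.08. Of 7 inhibitors of cyclin-dependent kinases 2 rose and 4 fell. Cdkn1a, which encodes the p21 that p53 induces, rose from 91.3, 58.6 and 57.0 CPM to 787, 962 and 961 CPM (3.71 ± 0.26, adjusted p = 8.2e-07). Cdkn1c and Cdkn1b, the p57 and p27 inhibitors, fell by 1.70 and 0.93 on the log2 scale (SE 0.09 and 0.10). Among the other mitotic genes Psrc1, a microtubule-associated protein, rose by 4.55 ± 0.22, Ckap2 by 1.51 ± 0.23 and Tubb4b by 0.43 ± 0.07. Of the replisome genes with the smallest p, Dtl rose by 1.18 ± 0.19, Pole, the leading-strand polymerase, by 0.95 ± 0.18, and Dbf4 by 0.56 ± 0.10. Of 15 tested pocket protein, E2F and MuvB factors 2 rose and 4 fell, with Tfdp1, a partner of E2F proteins, at 0.53 ± 0.08, E2f2 at -0.68 ± 0.11 and E2f7 at 0.67 ± 0.16.

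In KO lungs 14 members rose and 1 fell with hyperoxia, where 23.3% of all genes rose and 23.4% fell. The groups did not overlap for 20 members that were higher and 2 that were lower, against 26.4% and 26% of all genes. The study's rule again called only Ccnd1, against 10.6% of all genes, and the members' median log2 fold change was 0.30. All 15 members that passed in KO were among the 32 that passed in WT, in the same direction. S-phase members made up 12 of the 15, and 3 mitotic members, Ccnb1, Cenpe and Foxm1, passed. Ccnd1 rose from 150, 139 and 155 CPM to 576, 554 and 489 CPM (1.87 ± 0.09, adjusted p = 7.3e-09). Rrm1 rose from 33.3, 26.8 and 35.2 CPM to 47.6, 55.4 and 54.8 CPM (0.73 ± 0.11, adjusted p = 0.00013). For both genes every KO-O2 lung lay above every KO-RA lung. Mcm2 rose from 36.2, 27.1 and 34.4 CPM to 41.2, 44.3 and 40.4 CPM (0.37 ± 0.13, adjusted p = 0.041).

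Smaller rises in KO lungs were those of Ccne1 (0.65 ± 0.20), Cdc6 (0.68 ± 0.20), Tyms (0.33 ± 0.11) and Foxm1 (0.37 ± 0.16). Cenpe, a kinetochore motor, rose by 0.57 ± 0.17, and Ccnb1 by 0.59 ± 0.20. Cdk1, Mki67, Top2a and Kif20a did not pass, at 0.32 ± 0.18, 0.18 ± 0.19, 0.37 ± 0.18 and 0.41 ± 0.19, and neither did Pcna, at 0.06 ± 0.07. Cdkn1a rose by 3.49 ± 0.25, Cdkn1c fell by 1.61 and Cdkn1b by 0.71 on the log2 scale, and Psrc1 rose by 4.25 ± 0.21. Of the 60 other mitotic genes 13 rose and 2 fell, and of the 50 other replisome genes 15 rose and 5 fell. Of all genes 23.3% rose and 23.4% fell. The KO count was 8 without KO-RA mouse 2 (7 shared with the full fit), where 19.4% of all genes were higher and 19.7% lower. It was 9 without KO-O2 mouse 2, where 20.1% of all genes were higher and 19.1% lower. A fit without the 2 KO-O2 lungs rich in erythroid transcripts leaves a single KO-O2 lung. No member that passed in KO changed direction in that fit, and its calls are not given. Among males alone (2 KO-RA and 3 KO-O2 lungs) 43 of 48 members were higher in hyperoxia. KO-O2 lung 2, the richest in erythroid transcripts at 29920 CPM, was the highest of its group for 36 of 48 members.

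The genotypes were close in hyperoxic lungs. No member passed in KO-O2 against WT-O2, where 0.00595% of all genes were higher and 0.0357% lower, and none reached an unadjusted p under 0.05, against 6.21% of all genes. DESeq2 called none either. The median log2 fold change was 0.04, and single members ran from -0.25 for Orc1 to 0.45 for Bub1. Mcm2 differed by -0.03 ± 0.13, Cdk1 by 0.03 ± 0.18, Ccnd1 by -0.09 ± 0.09 and Mki67 by 0.14 ± 0.19. The smallest p among S-phase members belonged to Mcm10 (-0.20 ± 0.20), Orc1 (-0.25 ± 0.27), Rrm2 (0.18 ± 0.19), Gins1 (0.17 ± 0.23) and Ccnd1. Among mitotic members the smallest p belonged to Bub1b (0.29 ± 0.14), Nusap1 (0.28 ± 0.17), Kif11 (0.23 ± 0.17), Cenpe (0.21 ± 0.16) and Foxm1 (0.18 ± 0.16). Pcna, Ccnb1 and Top2a differed by 0.04 ± 0.07, 0.08 ± 0.20 and -0.00014 ± 0.18.

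In room air no member passed between KO-RA and WT-RA lungs either, with 0.143% of all genes higher and 0.345% lower. An unadjusted p under 0.05 was reached by 9 members, against 10.5% of all genes, and 42 of 48 estimates were above 0, with a median of 0.26. DESeq2 called 1 member, where it called 0.95% of all genes higher and 1.53% lower. Aurkb was at 4.85, 5.08 and 7.19 CPM in WT-RA and 10.7, 7.34 and 7.90 CPM in KO-RA lungs (0.60 ± 0.17, adjusted p = 0.19). It was the only member whose groups did not overlap, where 7.25% of all genes were higher and 7.9% lower without overlap. The others under 0.05 were Mcm2 (0.40 ± 0.13), E2f8 (0.51 ± 0.19), E2f1 (0.26 ± 0.12), Foxm1 (0.45 ± 0.16), Cdk1 (0.48 ± 0.18), Kif23 (0.42 ± 0.14), Kif11 (0.46 ± 0.17) and Cenpf (0.40 ± 0.18). Mki67 was at 0.40 ± 0.19, Top2a at 0.20 ± 0.18, Ccnb1 at 0.34 ± 0.21, Ccnd1 at 0.19 ± 0.09, Tyms at 0.23 ± 0.11 and Pcna at 0.07 ± 0.07. This comparison turned on 1 mouse, since 21 members passed without WT-RA lung 3, 6 S-phase and 15 mitotic, where 1.64% of all genes were higher and 1.89% lower in the same fit. Cdk1 was at 7.29 and 7.53 CPM in WT-RA lungs 1 and 2, 12.0 CPM in lung 3 and 11.5 to 14.4 CPM in KO-RA. KO-RA lung 1 was the highest of its group for 34 of 48 members. Its neutrophil and marrow precursor markers summed to 119 CPM, against 41.6 to 60.7 CPM in the other room air lungs. No WT-RA lung and 2 of 3 KO-RA lungs were male. The part of these differences was not tested.

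The test of whether the response to hyperoxia differed between genotypes called no member in the lung, with 0.00595% of all genes higher and 0% lower. An unadjusted p under 0.05 was reached by 3 members, Aurkb (-0.67 ± 0.24), Kif23 (-0.45 ± 0.20) and Mcm2 (-0.43 ± 0.19), against 6.72% of all genes, and DESeq2 called none. Of the 48 estimates 41 were below 0. Ccnd1 was at -0.28 ± 0.13, Orc1 at -0.76 ± 0.39, E2f1 at -0.30 ± 0.16, E2f8 at -0.41 ± 0.27, Cdk1 at -0.46 ± 0.25, Foxm1 at -0.27 ± 0.23 and Cenpf at -0.28 ± 0.25. Mki67, Top2a, Ccnb1 and Pcna were at -0.26 ± 0.27, -0.20 ± 0.26, -0.26 ± 0.29 and -0.02 ± 0.10. The larger count of passing members in WT lungs was therefore not shown to be a difference between genotypes.

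**Figure D2:**
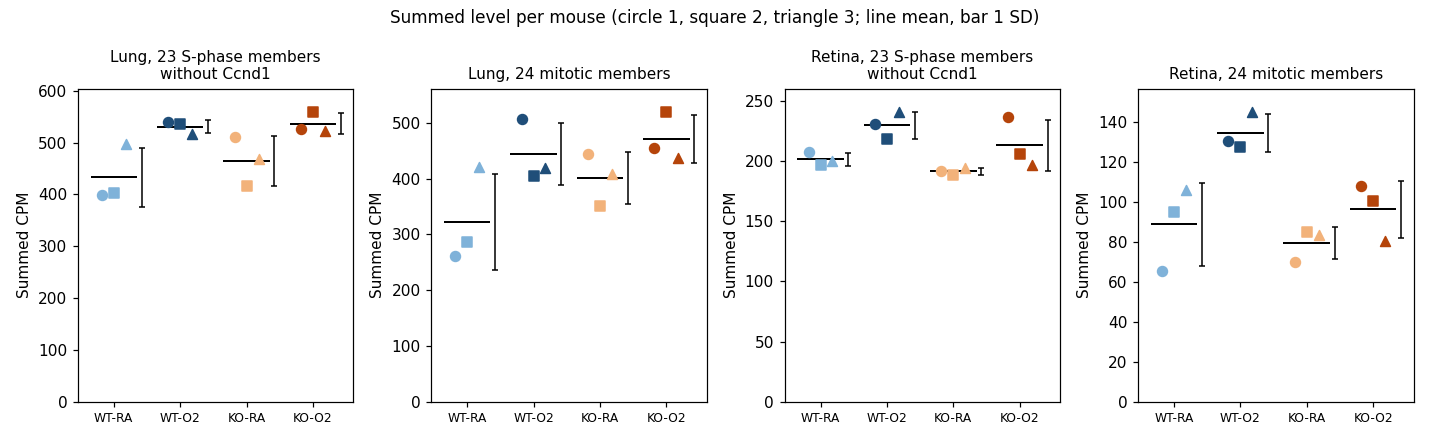
Summed CPM of the S-phase members without Ccnd1 and of the mitotic members is shown for each mouse in the lung and the retina, with the group mean and 1 SD. In the lung WT-RA mouse 3 stands at 421 CPM for the mitotic members, above the 261 and 286 CPM of the other WT-RA mice, and in the retina the WT-O2 mice stand highest for the mitotic members, at 128 to 145 CPM.

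Summed levels describe the classes as wholes, weighted toward their most abundant members. In the lung the S-phase members without Ccnd1 summed to 433 ± 57 CPM in room air and 530 ± 13 CPM in hyperoxia for WT, and to 465 ± 48 and 536 ± 20 CPM for KO (SD, n = 3). The mitotic members summed to 323 ± 86, 444 ± 55, 401 ± 47 and 471 ± 43 CPM in the same order. In the retina the S-phase members without Ccnd1 summed to 201 ± 5.3, 230 ± 11, 191 ± 3.0 and 213 ± 21 CPM, and the mitotic members to 89.0 ± 20.8, 134 ± 9.4, 79.5 ± 8.2 and 96.3 ± 14.2 CPM. The mitotic sums of the WT-O2 retinas (128 to 145 CPM) lay above all KO-O2 retinas (80.6 to 108 CPM) and all room air retinas (65.7 to 106 CPM).

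In WT retinas members of both classes, most of them mitotic, stood higher 6 days after the return to room air than in mice kept in room air. With hyperoxia 10 members rose and none fell, where 3.11% of all 19173 genes tested rose and 2.05% fell, and 9 met the study's rule, against 2.04% of all genes. Of the 10, 7 were mitotic. The median log2 fold change was 1.06 for mitotic and 0.40 for S-phase members, and 0.00 for all genes. The groups did not overlap for 26 members, all higher in hyperoxia (17 mitotic), where 12% of all genes were higher and 12% lower. The same number, 26, had an unadjusted p under 0.05, against 17.4% of all genes.

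Mki67 was at 0.0800, 0.0381 and 0.342 CPM in WT-RA retinas and 2.69, 1.34 and 2.55 CPM in WT-O2 retinas. The room air values rest on 2, 1 and 8 counts and the hyperoxic ones on 70, 43 and 75 (3.82 ± 0.71, adjusted p = 0.020). Cdk1 rose from 0.480, 0.343 and 1.88 CPM to 7.00, 6.98 and 10.0 CPM (3.15 ± 0.70, adjusted p = 0.041). Top2a rose from 0.520, 0.914 and 2.40 CPM to 6.69, 4.67 and 6.49 CPM (2.22 ± 0.52, adjusted p = 0.049). In all 3 genes WT-RA retina 3 was the highest in room air and still lay below every WT-O2 retina. Ccnb2, a cyclin B, rose from 1.04, 0.762 and 1.16 CPM to 2.08, 3.33 and 3.20 CPM (1.54 ± 0.34, adjusted p = 0.039). Birc5, or survivin, of the passenger complex, rose by 1.82 ± 0.41, Tpx2, a spindle assembly factor, by 1.38 ± 0.33, and Foxm1 by 1.07 ± 0.30. Ccnb1 did not pass, at 1.72 ± 0.74 on 34 counts in all WT-RA retinas, and neither did Aurkb, at 2.81 ± 1.06.

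Among S-phase members of WT retinas Mcm6, Mcm3 and E2f1 rose. Mcm6 went from 4.00, 3.20 and 4.07 CPM to 6.61, 6.92 and 6.32 CPM, with tight groups (0.82 ± 0.17, adjusted p = 0.029). Mcm3 rose from 1.88, 0.533 and 1.37 CPM to 3.61, 3.27 and 4.05 CPM (1.53 ± 0.42, adjusted p = 0.082). E2f1 rose from 2.24, 1.37 and 1.33 CPM to 4.34, 2.24 and 4.76 CPM (1.20 ± 0.31, adjusted p = 0.068). The lowest WT-O2 value of E2f1 lay just above the highest in room air. Ccnd1 and Cdk2 did not pass, at 0.70 ± 0.26 and 0.72 ± 0.23, and Mcm2 and Pcna were at 0.22 ± 0.18 and 0.17 ± 0.14.

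**Figure D3:**
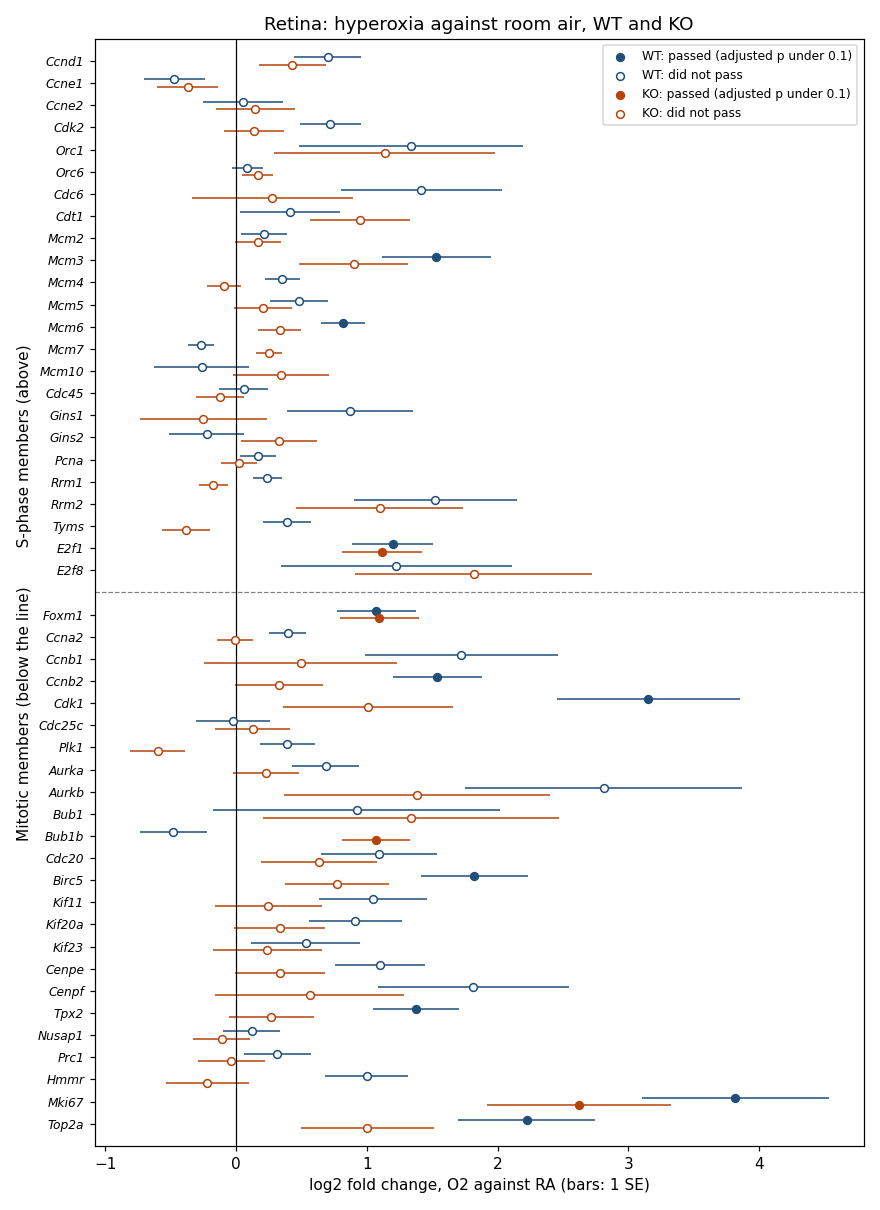
The log2 fold change of hyperoxia against room air is shown for each of the 48 members in WT (blue) and KO (orange) retinas, with bars of 1 SE and filled points for members that passed. The mitotic points in WT reach furthest right, to 3.82 for Mki67 and 3.15 for Cdk1, and 4 points are filled in KO.

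Sex and lens transcripts moved with this comparison, and their part in it was not tested beyond the values that follow. All 3 WT-RA retinas were male and 1 of 3 WT-O2 retinas was, and with Y-linked expression as a covariate only Mki67 passed (4.14, adjusted p = 0.052). In that fit 1.35% of all genes were higher and 0.422% lower. The male WT-O2 retina, mouse 1, held 2.69 CPM of Mki67, 7.00 CPM of Cdk1 and 6.69 CPM of Top2a, above every male WT-RA retina, and 41 of 48 members were higher in it than the mean of the WT-RA retinas. Without the lens-rich retinas 3 of the 10 members passed, Mki67, Cdk1 and Top2a, at 4.70, 4.04 and 3.50, together with 4 others, Bub1, Cdk2, Kif23 and Prc1. That fit leaves 1 WT-RA retina, which is assumed to vary like the other groups. The count was 4 without WT-RA mouse 1, 2 without WT-RA mouse 2, 4 without WT-O2 mouse 1, 4 without WT-O2 mouse 2 and 2 without WT-O2 mouse 3, and Mki67 passed in every one of these fits. Over all genes these fits called 1.1% to 1.61% higher and 0.562% to 0.699% lower. The 2 without WT-RA mouse 2 were Mki67 and Aurka, which is not among the 10. Without WT-RA mouse 3 the count was 10, of which 7 were shared with the full fit, where 3.6% of all genes were higher and 2.78% lower. Endothelial markers (8 genes, none at 0) summed to 113 to 139 CPM in WT-RA and 214 to 243 CPM in WT-O2 retinas, and macrophage and microglia markers (8 genes, none at 0) to 37.3 to 56.1 CPM and 83.7 to 122 CPM. Their part in the result was not tested.

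In KO retinas 4 members rose and none fell, where 4.38% of all genes rose and 3.44% fell, and all 4 met the study's rule, against 2.19% of all genes. Mki67 rose from 0.101, 0.134 and 0.0794 CPM to 0.694, 0.854 and 0.475 CPM (2.62 ± 0.70, adjusted p = 0.064), on 9 counts in all room air retinas and 59 in hyperoxia. E2f1 rose from 1.38, 1.65 and 1.83 CPM to 3.54, 3.48 and 3.53 CPM (1.12 ± 0.31, adjusted p = 0.069), and Foxm1 rose by 1.10 ± 0.30. These 3 also passed in WT. Bub1b, a spindle checkpoint kinase, rose from 6.11, 11.0 and 6.75 CPM to 20.7, 15.7 and 13.8 CPM (1.07 ± 0.26, adjusted p = 0.046), while in WT it was at 11.0, 18.2 and 18.1 CPM and 9.53, 12.6 and 11.8 CPM (-0.48 ± 0.26, adjusted p = 0.37). The groups did not overlap for 8 members that were higher and 2 that were lower, against 13.5% and 12.7% of all genes.

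Cdk1 in KO retinas was at 0.574, 1.14 and 2.78 CPM in room air and 4.68, 2.43 and 1.90 CPM in hyperoxia, with overlapping groups, and did not pass (1.01 ± 0.65). Top2a (1.00 ± 0.51), Ccnb1 (0.49 ± 0.74), Ccnd1 (0.43 ± 0.25), Mcm2 (0.17 ± 0.18), Pcna (0.02 ± 0.14), Mcm3 (0.90 ± 0.41), Cdt1 (0.95 ± 0.38), Mcm7 (0.25 ± 0.10), Tyms (-0.38 ± 0.18) and Plk1 (-0.60 ± 0.21) did not pass either. The KO count was 0 without KO-RA mouse 1, KO-RA mouse 3 or KO-O2 mouse 2, and 2 without KO-RA mouse 2 (Bub1b and Foxm1) or KO-O2 mouse 1 (Mki67 and Cdt1, the latter not among the 4). The fits with 0 called 1.21% to 2.07% of all genes higher and 0.66% to 1.65% lower. Those with 2 called 2.62% and 4.68% higher, and 2.06% and 3.98% lower. With Y-linked expression as a covariate none of the 4 passed, and 2 other members did, Cdt1 and Plk1. In that fit 2.24% of all genes were higher and 1.46% lower. Without the lens-rich retinas only Mki67 passed. Endothelial markers summed to 131 to 142 CPM in KO-RA and 176 to 194 CPM in KO-O2 retinas (5 of 8 rose), and macrophage and microglia markers to 34.4 to 49.8 CPM and 78.4 to 113 CPM (4 of 8 rose). Their part in the result was not tested. In the only male KO-O2 retina, mouse 2, 32 of 48 members were higher than the mean of the male KO-RA retinas.

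In hyperoxic retinas the mitotic members were lower in KO than in WT for the most part. Plk1, polo-like kinase 1, and Ccnb2 fell, no member rose, and 0.569% of all genes were higher and 0.704% lower. Ccnb2, the only one of the 2 to meet the study's rule (0.292% of all genes), was at 2.08, 3.33 and 3.20 CPM in WT-O2 and 1.25, 0.854 and 0.814 CPM in KO-O2 (-1.56 ± 0.34, adjusted p = 0.086). Plk1 was at 5.19, 7.29 and 6.46 CPM and 3.40, 2.66 and 3.83 CPM (-0.94 ± 0.21, adjusted p = 0.095). Neither gene's groups overlapped. Across the members 25 were lower in every KO-O2 retina than in any WT-O2 retina and 2 were higher, against 9.85% and 10.1% of all genes, and 17 of the 25 were mitotic. An unadjusted p under 0.05 was reached by 17 members, against 12.6% of all genes. The median log2 fold change was -0.73 for mitotic members, -0.19 for S-phase members and 0.01 for all genes.

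The members that had changed most with hyperoxia in WT retinas were among those lower in KO-O2 without passing, and both comparisons use the same WT-O2 retinas. Mki67 was at 2.69, 1.34 and 2.55 CPM in WT-O2 and 0.694, 0.854 and 0.475 CPM in KO-O2 (-1.70 ± 0.64, adjusted p = 0.28). Cdk1 was at 7.00, 6.98 and 10.0 CPM and 4.68, 2.43 and 1.90 CPM (-1.41 ± 0.64, adjusted p = 0.40). Top2a differed by -1.38 ± 0.50, Tpx2 by -1.15 ± 0.32, Ccnb1 by -1.85 ± 0.74 and Nusap1 by -0.61 ± 0.22. Among S-phase members Gins1 differed by -1.40 ± 0.49, Cdc6 by -1.54 ± 0.61, Rrm2 by -1.62 ± 0.62, Cdk2 by -0.57 ± 0.23 and Mcm4 by -0.33 ± 0.13. Foxm1 and E2f1 lay closer, at -0.21 ± 0.29 and -0.10 ± 0.30, and so did Mcm2, Pcna and Ccnd1, at -0.25 ± 0.18, -0.09 ± 0.14 and -0.11 ± 0.25. The 2 hyperoxic groups had the same balance of sexes. Within females (2 and 2 retinas) 39 of 48 members were lower in KO-O2, and between the 2 males 38 were, with no share of all genes beside them. The calls were fragile: 1 member passed without KO-O2 mouse 1, where 0.76% of all genes were higher and 0.995% lower. None passed without any other single mouse of the 6, where 0.035% to 0.0752% of all genes were higher and 0.025% to 0.15% lower. DESeq2 called 3 members, Ccnb2, Plk1 and Tpx2, against 2.4% of all genes higher and 3.31% lower. Endothelial markers, at 176 to 194 CPM in KO-O2 against 214 to 243 CPM in WT-O2 retinas, moved with the members. Erythroid markers moved further, from 983 to 1552 CPM in WT-O2 to 371 to 430 CPM in KO-O2 retinas, with 4 of 7 tested lower and a median of -1.57. The part of either list was not tested.

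**Figure D4:**
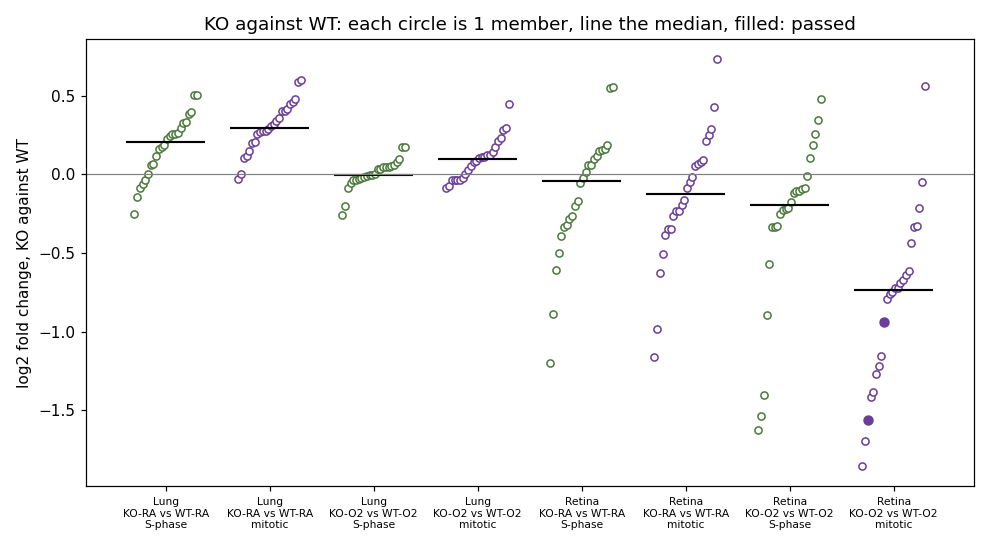
Each circle is the log2 fold change of 1 member in KO against WT, for S-phase and mitotic members in room air and in hyperoxia, with a line at the median and filled circles for members that passed. The mitotic members of hyperoxic retinas centre at -0.73 with 2 filled, and those of hyperoxic lungs at 0.10.

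Between KO-RA and WT-RA retinas no member passed, with 0% of all genes higher and 0.00522% lower. An unadjusted p under 0.05 was reached by 4 members, against 12.7% of all genes. DESeq2 called 3 members, where it called 2.36% of all genes higher and 2.97% lower. The 4 were Mcm7 (-0.33 ± 0.10), Gins2 (-0.89 ± 0.29), Tyms (0.55 ± 0.18) and Bub1b (-0.98 ± 0.26). Mki67, Cdk1, Top2a and Ccnb1 were at -0.50 ± 0.73, 0.73 ± 0.68, -0.16 ± 0.52 and -0.62 ± 0.74, with standard errors nearly as large as the estimates or larger. Rrm2 and Bub1 were at -1.20 ± 0.64 and -1.16 ± 1.13, and Bub1 was at 0 counts in WT-RA retina 1. Ccnd1, Mcm2 and Pcna were at 0.16 ± 0.26, -0.20 ± 0.18 and 0.06 ± 0.14, Rrm1 at 0.19 ± 0.11, Nusap1 at -0.38 ± 0.22 and Hmmr at 0.43 ± 0.32.

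The interaction of genotype and hyperoxia called no member in the retina, with 0.00522% of all genes higher and 0% lower. DESeq2 called 2 members, Bub1b and Mcm7, both with estimates above 0 in edgeR, where it called 1.48% of all genes higher and 1.32% lower. An unadjusted p under 0.05 was reached in edgeR by 10 members, against 10.6% of all genes. The largest estimates among those 10 were Cdk1 (-2.14 ± 0.93), Bub1b (1.55 ± 0.37), Hmmr (-1.22 ± 0.45), Ccnb2 (-1.21 ± 0.48) and Tpx2 (-1.11 ± 0.46). The other 5 were Plk1 (-0.99 ± 0.30), Tyms (-0.77 ± 0.26), Mcm7 (0.52 ± 0.14), Mcm4 (-0.45 ± 0.19) and Rrm1 (-0.41 ± 0.16). Mki67, Top2a and Ccnb1 were at -1.19 ± 0.99, -1.22 ± 0.72 and -1.23 ± 1.04, and Mcm6, Ccnd1, Mcm2 and Pcna at -0.48 ± 0.23, -0.27 ± 0.36, -0.05 ± 0.25 and -0.15 ± 0.19. The median was -0.78 for mitotic members and -0.19 for S-phase members. A smaller response of the mitotic genes in KO retinas was thus not shown by this test, and its standard errors leave room for a large difference.

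Some other cell cycle genes passed in WT retinas, where 3.11% of all genes rose and 2.05% fell. Of 60 other mitotic genes 7 rose and 1 fell, among them Ube2c, a ubiquitin conjugase of the anaphase-promoting complex, at 1.58 ± 0.21, Nuf2, of the kinetochore, at 1.46 ± 0.30, and Spc25, which fell, at -1.42 ± 0.19. Of 50 other replisome genes 3 rose and none fell: Chaf1b by 2.01 ± 0.48, Uhrf1 by 2.12 ± 0.55 and Pole2 by 1.05 ± 0.27. Cdk6 rose by 1.14 ± 0.24 and E2f6 by 0.73 ± 0.14. Cdkn1a rose from 12.2, 12.3 and 11.8 CPM to 21.7, 36.0 and 21.4 CPM (1.12 ± 0.25, adjusted p = 0.040), and in KO by 0.98 ± 0.25. In KO-O2 against WT-O2 retinas Ube2c and Cenpm fell, by 1.36 and 1.12 on the log2 scale, and E2f6 fell by 0.66.

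In WT lungs 19 S-phase and 13 mitotic members passed, with folds that stayed small outside Ccnd1. In WT retinas 3 and 7 passed, with larger folds on far fewer counts. The common coefficient of variation between mice was 33.7% in the retina and 12.7% in the lung, so small folds pass less readily in the retina. Neither the balance of the classes nor the tissues were tested against each other, and without WT-RA mouse 3 the lung counts were 18 and 22. Foxm1, Cdk1, Top2a, Mki67, Tpx2, E2f1, Mcm3 and Mcm6 rose in both tissues, Ccnb2 and Birc5 passed in the retina and not in the lung, from tables made and normalised apart. The plot of single genes shows the pattern mouse by mouse.

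**Figure D5:**
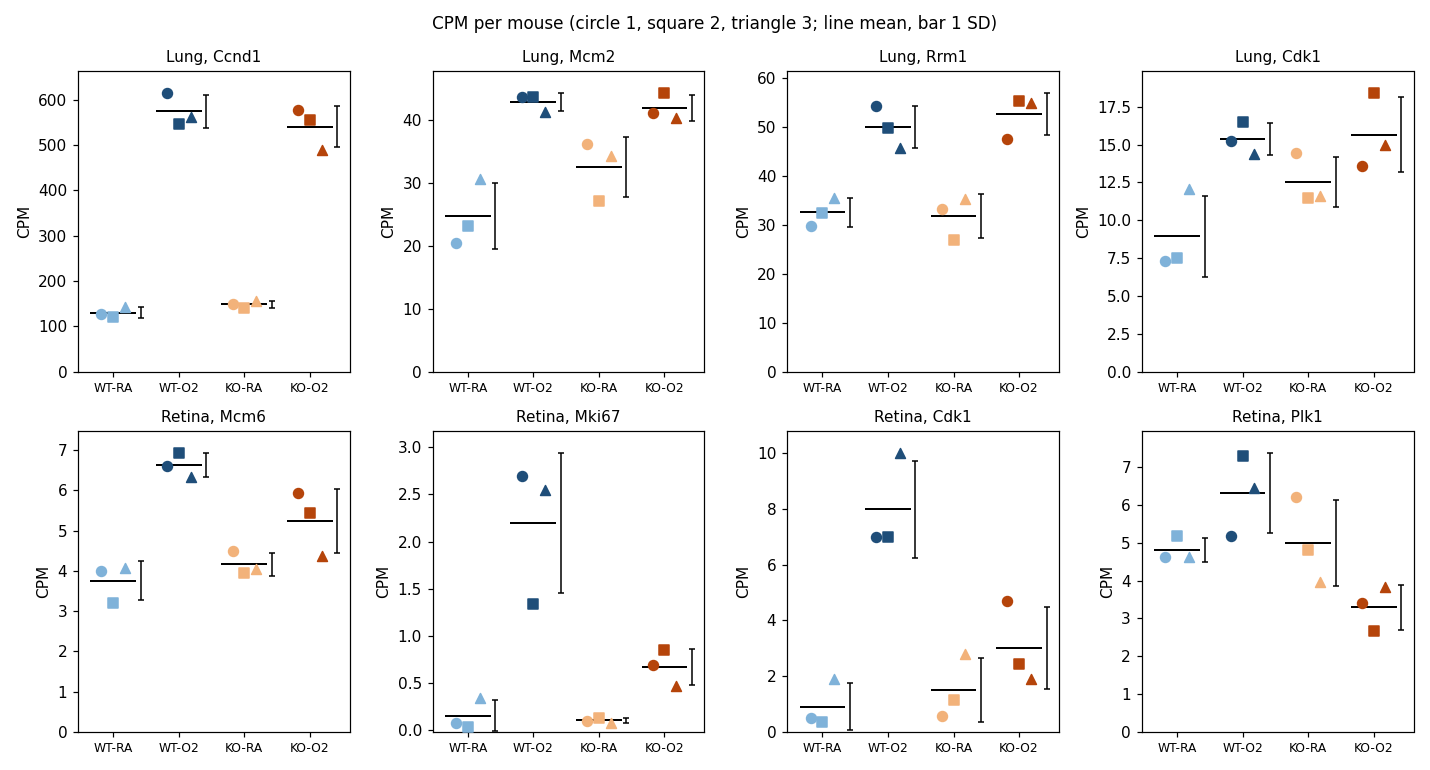
CPM of 4 members in each lung and 4 in each retina, by group, with the mean and 1 SD. Lung Ccnd1 rises to 489 to 614 CPM in both hyperoxic groups, while retinal Cdk1 reaches 6.98 to 10.0 CPM in WT-O2 and 1.90 to 4.68 CPM in KO-O2.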

How the data were processed

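RNA from 12 lungs and 12 retinas was sequenced by BGI as 150 bp paired reads. The authors assigned reads with kallisto and summarised them per gene with tximport, and they deposited expected counts (estimated counts) in 1 table for each tissue. The submitters' processing notes name mm10, the study's supplementary methods another mouse build, and retina counts are mostly not whole and may be scaled within a library, so tests stayed within a tissue. Counts were rounded and given symbols by Ensembl identifier. In R 4.3.3, edgeR 4.0.16 fitted all 12 samples of a tissue with a term per group after filterByExpr and TMM (robust quasi-likelihood, Benjamini-Hochberg over all 16819 or 19173 tested genes). The SE was obtained from the log2 fold change and the F statistic. CPM uses TMM factors. P-values rest on a spread between mice estimated over all 12 samples of a tissue and moderated across genes, with 3 mice a group.

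Named are, in each comparison, 7 set members, those meeting the study's rule (adjusted p under 0.1, p under 0.05, fold of at least 2), and the 5 smallest p of each class. Up to 3 genes of each pathway list and Cdkn1a are named too, not all in every comparison. Other members were named after their values were seen. The members and lists were chosen with earlier results of these data known. Alternatives were RLE factors, no filter, DESeq2 1.42.0, only the 6 samples compared, Y-linked expression as a covariate, an adjusted p under 0.05, the study's rule and leaving out each mouse. Leaving out erythroid-rich lungs or lens-rich retinas was added after seeing the data. Counts of members within a sex carry no share of all genes and no test. The scripts were tested on simulated data. Promoters were RefSeq windows, exon overlaps GENCODE vM21. Not all marker lists are reported, and a pathway gene that the rule names is not reported here.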

Additional observations from a re-analysis of the deposited data

Results flagged for a closer look

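Cdk2 moved in opposite directions in the 2 tissues of WT mice: with hyperoxia it was lower in every lung (log2 fold change -0.22, adjusted p = 0.045) and higher in every retina (0.72, adjusted p = 0.14). The difference between the tissues was not tested. In the retina Plk1 and Tyms moved with hyperoxia in opposite directions in the 2 genotypes, without overlap. Plk1 was higher with hyperoxia in WT (0.39) and lower in KO (-0.60), and the interaction was -0.99 ± 0.30 (adjusted p = 0.28). Tyms was at 0.39 in WT and -0.38 in KO (interaction -0.77 ± 0.26, adjusted p = 0.33). Mcm7 was found on another contrast: every KO retina was lower than every WT retina in room air (-0.33) and higher in hyperoxia (0.19), with an interaction of 0.52 ± 0.14 (adjusted p = 0.24). None of these interactions passed in edgeR's quasi-likelihood test, while DESeq2 called that of Mcm7.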

How the results depend on the processing

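With 3 mice a group, single mice moved the counts of passing members. Leaving out each mouse in turn gave 22 to 40 for hyperoxia in WT lungs (32 in the full fit), 8 to 16 in KO lungs (15), 0 to 21 for KO-RA against WT-RA lungs (0), 2 to 10 in WT retinas (10), 0 to 3 in KO retinas (4) and 0 to 1 for KO-O2 against WT-O2 retinas (2). In the same order, the share of all genes called higher ran 21.1% to 24.7%, 19.3% to 21.1% and 0% to 1.64% in lungs. In retinas it ran 1.1% to 3.6%, 1.21% to 4.68% and 0.035% to 0.76%. Shares called lower ran 20.8% to 23.9%, 19% to 21.1%, 0.0117% to 1.89%, 0.562% to 2.78%, 0.66% to 3.98% and 0.025% to 0.995%. The cause of these changes was not tested. With the study's rule 1 member was called in WT lungs, 1 in KO lungs and 1 in KO-O2 against WT-O2 retinas, since a fold of at least 2 is asked. An adjusted p under 0.05 left 6 in WT retinas, 1 in KO retinas and 0 for KO-O2 against WT-O2 retinas. It called 1.73%, 2.26% and 0.12% of all genes higher and 0.881%, 1.68% and 0.219% lower. Fitting only the 6 samples compared gave 25 in KO lungs and 0 for KO-O2 against WT-O2 retinas, and no filter also gave 0 there. In that order these fits called 24.7%, 0.254% and 0.181% of all genes higher and 25%, 0.354% and 0.282% lower. With Y-linked expression as a covariate 1, 2 and 1 passed in WT retinas, KO retinas and KO-O2 against WT-O2 retinas, and the 2 in KO retinas were not among the 4. All-gene shares there were 1.35%, 2.24% and 0.235% higher and 0.422%, 1.46% and 0.37% lower. DESeq2 called 1 for KO-RA against WT-RA lungs, 3 for KO-RA against WT-RA retinas and 2 for the retinal interaction, beside the all-gene shares above. Leaving out the erythroid-rich KO-O2 lungs left a single lung in that group, so its calls are not given. Leaving out the lens-rich retinas is described above. No named passing member changed direction under any alternative run, and of the refitted values of these members 539 kept their call and 183 lost it. No paired analysis was possible because the labels give no number that pairs mice across groups. Members under 1 CPM in the retina rest on few counts, which limits their folds.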

Other observations

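In room air WT mice 38 of the 48 members had a higher CPM in the lung than in the retina, and 10 a lower one. The median ratio of lung to retina was 2.61 for S-phase and 6.98 for mitotic members. The tables were made and normalised apart, so these ratios are a description of levels and carry no test.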
